A study of Homo sapiens with 6 samples.

Results

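The 37 genes described here encode the glucose transporters, enzymes and regulators of glycolysis, together with genes of the cellular response to low oxygen. They were picked by symbol from the 21533 genes of the deposited tables, and all 37 symbols were found. They comprise 2 glucose transporters, 17 glycolytic enzymes (lactate dehydrogenases included), 3 PFKFB enzymes, 3 genes acting on the fate of pyruvate and lactate, 2 hypoxia-inducible factor (HIF) α subunits and 10 other hypoxia genes. Their mRNA was sequenced in LX-2, a human line derived from hepatic stellate cells, labelled mesenchymal. In 3 samples the cells had been transfected with a control siRNA and in 3 samples with an siRNA against PERK, the endoplasmic reticulum stress sensor encoded by EIF2AK3. All 6 samples had received palmitic acid, a saturated fatty acid, and RNA was collected 24 h later. Samples without palmitic acid and samples at low oxygen were not analysed here, and the labels give no oxygen level for the cultures.

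Glycolysis converts glucose to pyruvate in the cytosol and yields ATP without oxygen. Lactate dehydrogenase then reduces pyruvate to lactate, which leaves the cell through monocarboxylate transporters. When oxygen is scarce, prolyl hydroxylases no longer mark HIF α subunits for degradation, and the stabilised factor raises transcription of many glycolytic genes and of genes for pH control, mitophagy and vascular tone. HIF α proteins are regulated mainly after translation, so their mRNA level is not a measure of their activity. Activated stellate cells are known for a high glycolytic flux.

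The tables held 17937141 to 19585872 exon reads per sample, and levels are given as CPM, a gene's reads scaled to the library total with TMM factors, or as TPM (also scaled to gene length) where genes are compared with each other. Detection was limited by a floor of 3 reads, which is 0.153 to 0.167 CPM and covers counting error only. EIF2AK3 stood at 12.9, 13.0 and 13.9 CPM in control samples and at 4.37, 4.96 and 5.52 CPM in PERK siRNA samples, so 37.3% of the control level remained (log2 fold change -1.42, SE 0.10, adjusted p = 3.0e-13 by edgeR's quasi-likelihood test with Benjamini-Hochberg adjustment, used throughout). The 14 listed stellate markers summed to 7871 to 8150 CPM in controls and to 8788 to 8883 CPM with PERK siRNA, most of it VIM, COL1A1 and SPARC, while DES and LRAT were at or near 0. Of the 12 tested, 7 rose and 3 fell, among them ACTA2 (1.95) and TAGLN (1.71) upward and PDGFRA (-1.41) and COL3A1 (-0.89) downward on the log2 scale. Of 8 hepatocyte markers ALB, APOA1, APOB, TTR and CYP3A4 had no read, HP and TF had few, and SERPINA1 averaged 4.28 and 3.76 CPM without passing the test; their sum was 4.18 to 5.44 and 3.68 to 4.37 CPM. The summed level of 7 endothelial markers was 11.2 to 11.6 CPM in controls and 3.03 to 3.63 CPM with PERK siRNA, with LYVE1 and CLEC4G at 0 throughout. Most of it in controls was PECAM1, which fell (-3.80). The other 2 tested did not pass: VWF overlapped (-0.30), and KDR lay above the controls in all PERK siRNA samples (1.49 to 2.03 CPM, 0.44, adjusted p = 0.076). The 5 cholangiocyte markers, mostly SOX9, summed to 129.7 to 138.9 and 86.2 to 97.7 CPM, and both tested, SOX9 (-0.54) and KRT7 (-0.82), fell. The 7 macrophage markers summed to 81.6 to 84.8 and 72.5 to 75.4 CPM. Of these CD68 held most and did not pass (-0.05), CSF1R (-3.14) and CD14 (-0.48) fell, and CD163, MARCO and VSIG4 were at 0. PTPRC was too scarce to be tested but lay higher with PERK siRNA (11, 11 and 10 reads, against 7, 2 and 8 in controls). The part of these markers in the results below was not tested. Whether the samples of a group were separate cultures is not stated, and the p-values cover only the spread between these samples, possibly a technical one.

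Most of these genes were lower with PERK siRNA. In bulk RNA, fewer cells of a type and less RNA per cell cannot be told apart. Of 37 members 36 had enough reads to be tested, and CA9 had none in any sample. At an adjusted p under 0.05, 24 of the 36 fell and 8 rose, a share of 66.7% lower and 22.2% higher. Over all 12973 genes tested, 35% fell and 34.4% rose by the same rule, so that 69.5% passed in either direction. The members, and the further lists below, were chosen with earlier results of these data known. Their shares beside this background are therefore a description and not a test. The median log2 fold change of the tested members was -0.23, against 0.00 over all tested genes. Changes of at least 2-fold were found in 6 members. SLC2A3, EPAS1, EGLN3 and ANKRD37 fell that far, whereas SLC16A1 and CA12 rose that far. Over all genes 3.84% fell and 4.07% rose by at least 2-fold. The scarce EGLN3 and ANKRD37 would not have passed the expression filter on their PERK siRNA samples alone. In 25 members all PERK siRNA samples lay below all control samples and in 8 all lay above, while 36% and 35.8% of all tested genes were separated in these directions.

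**Figure D1:**
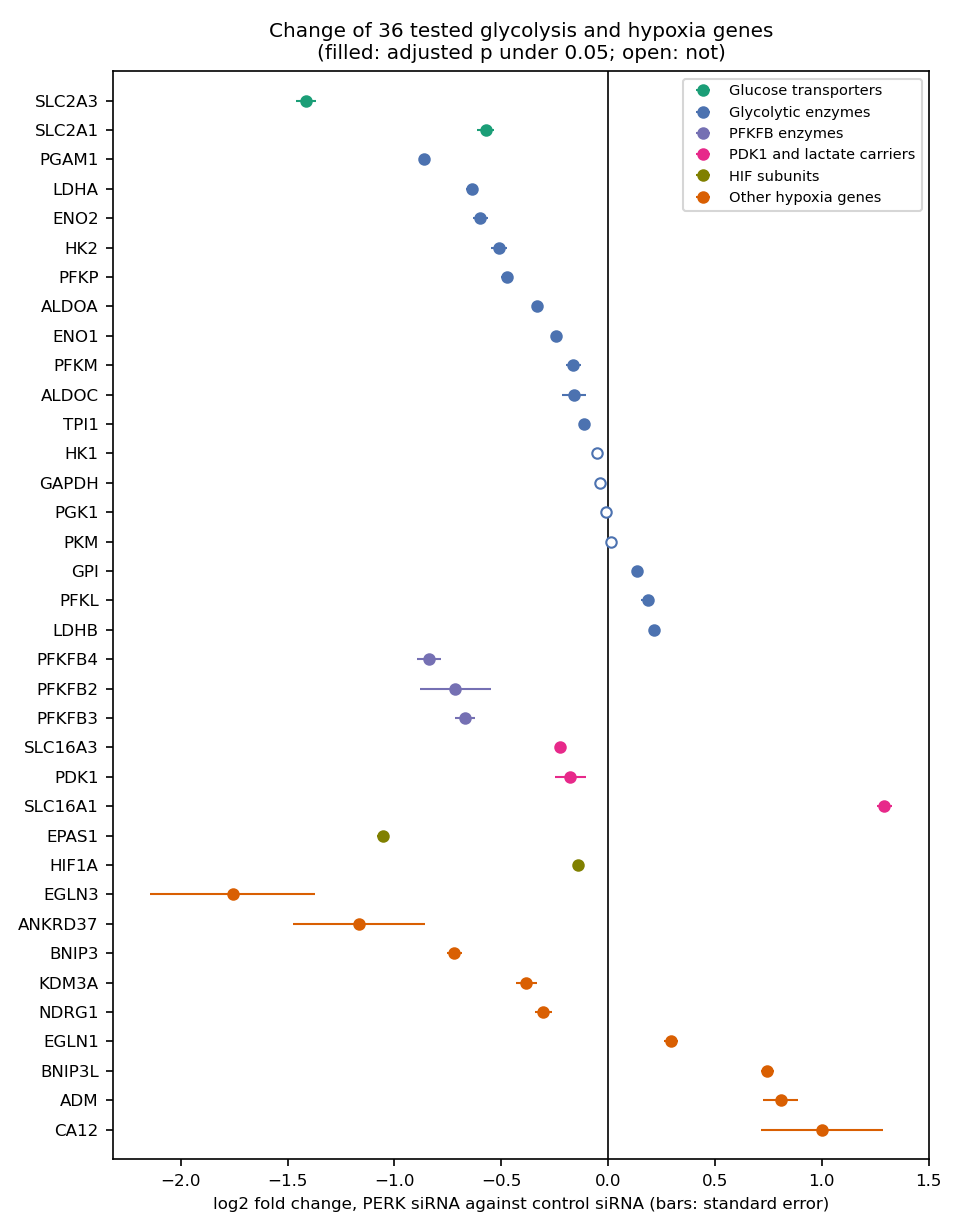
The horizontal axis gives the log2 fold change of PERK siRNA against control siRNA (3 samples each) for 36 tested genes, coloured by role, with bars for the standard error; filled points passed an adjusted p of 0.05. Most points lie left of 0, with SLC2A3 at -1.41 and EPAS1 at -1.05, while SLC16A1 stands apart at 1.29.

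HIF binds DNA at a core written ACGTG or GCGTG, and the RefSeq promoter table (GRCh38.p14) was searched for both on either strand in the 250 bases before each listed start. The table matched 32 members with 60 starts in all; BNIP3L, NDRG1, PFKFB2, SLC16A1 and SLC2A3 were not matched. Of these starts 36 (60%) had a core within the 250 bases, against 55.1% of the starts of tested genes and 43.2% of all starts in the table. Counted by gene, 27 of 32 members (84.4%) and 65.4% of tested genes had one at any listed start. That count favours genes with more starts: the tested genes matched numbered 10453 with 15365 starts, fewer per gene than the members. The median GC content before the starts was 68.4% for members and 64.4% for tested genes, and its part was not tested. By start, a core was found before 51.4% of the 37 of glycolytic enzymes and 88.9% of the 9 of other hypoxia genes, a difference that was not tested. Counting by start gives more weight to genes with many listed starts, such as HK1 and PFKM, most of whose starts had no core. By gene the lists were closer: only PGAM1, PKM and LDHB among the enzymes had no core at any start. Among the matched other hypoxia genes only EGLN3 had none. CACGTG holds ACGTG on both strands, is counted as 2 matches and is also the E-box bound by other factors. The stretches below were chosen to set genes that fell beside genes that did not pass the test and genes that rose; each is the 30 bases with most core bases, read 5′ to 3′ on the gene's strand, with the cores in capitals.
LDHA, fell (chr11:18394471-18394500, plus strand): actcaCACGTGggttcccgCACGTccgccg
HK2, fell (chr2:74834063-74834092, plus strand): agccaatggGCGTGcgCACGTcactgatcc
ENO2, fell (chr12:6914450-6914479, plus strand): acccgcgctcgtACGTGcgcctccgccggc
BNIP3, fell (chr10:131982031-131982060, minus strand): ccgCACGTGccaCACGCacccCACGCccct
ANKRD37, fell (chr4:185396676-185396705, plus strand): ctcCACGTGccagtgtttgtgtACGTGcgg
GAPDH, did not pass (chr12:6535171-6535200, plus strand): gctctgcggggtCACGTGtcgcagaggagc
PGK1, did not pass (chrX:78104043-78104072, plus strand): cggACGTGacaaacggaagccgCACGTctc
ADM, rose (chr11:10304960-10304989, plus strand): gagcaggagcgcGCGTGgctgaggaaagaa
EGLN1, rose (chr1:231422288-231422317, minus strand): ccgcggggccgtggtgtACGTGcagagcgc
These stretches were picked from genes with a core, so cores at all 3 outcomes follow from the choice. Over all listed starts, a core was found before 62.8% of the 43 of members that fell and before 5 of the 6 of members that rose. Neither core was found before the listed starts of SLC2A1, PGAM1, PKM, LDHB or EGLN3. A match describes the sequence and not binding.

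Both glucose transporter genes among the members fell. SLC2A3 (chromosome 12, 7919230 to 7936275, minus strand, GRCh38), which encodes the high-affinity transporter GLUT3, stood at 61.0, 60.8 and 63.4 CPM in controls. In PERK siRNA samples it stood at 23.9, 22.9 and 22.7 CPM, well below every control. The log2 fold change was -1.41 (SE 0.05, adjusted p = 3.9e-21), the second lowest among the members after that of EGLN3. SLC2A1 (chromosome 1, 42925375 to 42959176, minus strand) encodes GLUT1, the widely expressed basal transporter. Its level was 121.4, 107.0 and 118.4 CPM in controls and 77.9, 79.1 and 76.3 CPM with PERK siRNA (log2 fold change -0.57, SE 0.04, adjusted p = 4.1e-12). The controls were more spread than the PERK siRNA samples, and the groups did not overlap.

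The enzymes of the first steps moved in both directions. Hexokinases trap glucose as glucose 6-phosphate. HK2 (chromosome 2, 74833981 to 74893359, plus strand), the inducible form, stood at 113.4, 105.3 and 111.1 CPM in controls and at 77.8, 72.7 and 80.9 CPM with PERK siRNA. It fell by 0.51 on the log2 scale (SE 0.04, adjusted p = 2.4e-12). HK1, the housekeeping form, averaged 340.1 ± 5.51 and 327.9 ± 5.83 CPM (SD, n = 3 each) without passing the test (-0.05 on the log2 scale, adjusted p = 0.061), although all PERK siRNA samples lay below the controls. It passed without control sample 3 (adjusted p = 0.029), without scaling factors (0.021) and with no filter on low counts (0.034). GPI, which converts glucose 6-phosphate to fructose 6-phosphate, rose slightly, by 0.13 on the log2 scale (adjusted p = 1.8e-05); the control mean was 333.2 ± 3.04 CPM and the PERK siRNA mean 365.8 ± 6.86 CPM (SD, n = 3 each).

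Phosphofructokinase commits sugar to glycolysis, and its 3 subunit genes did not move alike. PFKP (chromosome 10, 3066333 to 3137712, plus strand), the platelet-type subunit, was at 248.1, 245.2 and 249.6 CPM in controls and at 181.5, 170.3 and 183.0 CPM with PERK siRNA. The log2 fold change was -0.47 (SE 0.03, adjusted p = 4.7e-15). The muscle-type PFKM fell less, from 84.9 ± 1.94 to 75.8 ± 2.40 CPM (SD, n = 3 each; -0.16, adjusted p = 0.00019). The liver-type PFKL (chromosome 21, 44300051 to 44327376, plus strand) went the other way, from 131.1, 125.2 and 126.9 CPM to 142.9, 147.4 and 145.4 CPM (0.19, SE 0.03, adjusted p = 2.1e-06).

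All 3 PFKFB genes fell. Their products make and break down fructose 2,6-bisphosphate, the strongest activator of phosphofructokinase. PFKFB4 (chromosome 3, 48517684 to 48562015, minus strand) stood at 35.3, 38.5 and 37.8 CPM in controls and at 20.8, 20.2 and 21.4 CPM with PERK siRNA (-0.84, SE 0.06, adjusted p = 4.6e-14). PFKFB3 (chromosome 10, 6144934 to 6254644, plus strand), whose product strongly favours synthesis, stood at 52.3, 48.9 and 51.7 CPM against 30.9, 32.7 and 32.5 CPM (-0.67, SE 0.05, adjusted p = 1.9e-13). In both genes the groups lay far apart relative to their spread. PFKFB2 was scarce, with 70 to 92 reads in each control and 38 to 56 in each sample with PERK siRNA, and fell by 0.71 on the log2 scale (SE 0.17, adjusted p = 0.00042).

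In the middle of the pathway the changes were smaller. Aldolase splits the 6-carbon sugar. ALDOA, its main form here, stood at 1227, 1188 and 1224 CPM in controls and at 964.8, 951.8 and 975.4 CPM with PERK siRNA (-0.33, SE 0.02, adjusted p = 1.6e-13). ALDOC, the form typical of brain, averaged 27.7 ± 1.28 and 24.8 ± 1.05 CPM (SD, n = 3 each; -0.16, adjusted p = 0.015), but it did not pass with DESeq2 (adjusted p = 0.087), nor when control sample 3 (0.073) or PERK siRNA sample 3 (0.063) was left out. TPI1, which interconverts the 3-carbon products, fell slightly (-0.11, adjusted p = 0.00014), from 1378 ± 34.2 to 1276 ± 19.1 CPM (SD, n = 3 each). GAPDH, the glyceraldehyde 3-phosphate dehydrogenase gene, was at 4473, 4324 and 4521 CPM in controls and at 4383, 4269 and 4328 CPM with PERK siRNA. These groups overlapped, and GAPDH did not pass the test (-0.04, SE 0.02, adjusted p = 0.16); it passed without control sample 2 (adjusted p = 0.016) and without scaling factors (0.048). PGK1, which makes the first ATP of the pathway, averaged 523.1 ± 9.13 and 520.2 ± 12.1 CPM (SD, n = 3 each) and did not pass either (-0.01, SE 0.02, adjusted p = 0.78).

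The mutase and lactate dehydrogenase A gave the largest falls among the enzymes. PGAM1 (chromosome 10, 97426160 to 97433441, plus strand), which moves the phosphate of 3-phosphoglycerate, stood at 564.4, 542.2 and 564.7 CPM in controls. It was at 302.5, 301.8 and 315.5 CPM with PERK siRNA, so 55.0% of the control level remained (-0.86, SE 0.03, adjusted p = 3.0e-22). The enolases produce phosphoenolpyruvate. ENO1, the general form, fell from 2400 ± 66.1 to 2026 ± 55.3 CPM (SD, n = 3 each; -0.24, adjusted p = 7.9e-10). ENO2 (chromosome 12, 6913745 to 6923698, plus strand), the neuronal form, fell further, from 83.5, 81.8 and 83.5 CPM to 55.4, 55.0 and 54.0 CPM (-0.60, SE 0.04, adjusted p = 6.7e-15). PKM, whose product makes pyruvate, averaged 3232 ± 37.9 and 3261 ± 64.5 CPM (SD, n = 3 each), with overlapping groups and no change past the test (0.01, SE 0.02, adjusted p = 0.63). These reads per gene do not separate the M1 and M2 splice forms of PKM.

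The 2 lactate dehydrogenase genes moved in opposite directions. LDHA (chromosome 11, 18394388 to 18408425, plus strand), whose subunit favours the making of lactate, stood at 796.4, 791.4 and 813.1 CPM in controls and at 520.1, 496.1 and 525.6 CPM with PERK siRNA (-0.64, SE 0.02, adjusted p = 1.9e-19). LDHB (chromosome 12, 21635342 to 21757857, minus strand), whose subunit favours the return of lactate to pyruvate, rose from 535.3, 542.9 and 556.6 CPM to 648.3, 613.1 and 636.8 CPM (0.22, SE 0.03, adjusted p = 1.0e-08). Neither pair of groups overlapped.

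The largest rise among the members was that of a lactate carrier. SLC16A1 (chromosome 1, 112911847 to 112957013, minus strand) encodes MCT1, which carries lactate and pyruvate across the membrane in either direction. It stood at 48.8, 47.6 and 46.1 CPM in controls and at 116.4, 115.9 and 116.7 CPM with PERK siRNA. The PERK siRNA samples agreed closely, and the log2 fold change was 1.29 (SE 0.04, adjusted p = 3.8e-23). SLC16A3 (chromosome 17, 82228397 to 82261129, plus strand), which encodes MCT4, the exporter typical of glycolytic cells, fell from 218.9, 208.1 and 208.6 CPM to 184.1, 179.5 and 181.3 CPM (-0.22, SE 0.03, adjusted p = 3.1e-08). PDK1, a kinase that shuts off pyruvate dehydrogenase, averaged 17.6 ± 1.07 and 15.5 ± 0.73 CPM (SD, n = 3 each; -0.18, adjusted p = 0.030). PDK1 did not pass with DESeq2 (adjusted p = 0.13), nor when control sample 1 (0.13), control sample 3 (0.063) or PERK siRNA sample 1 (0.12) was left out.

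**Figure D2:**
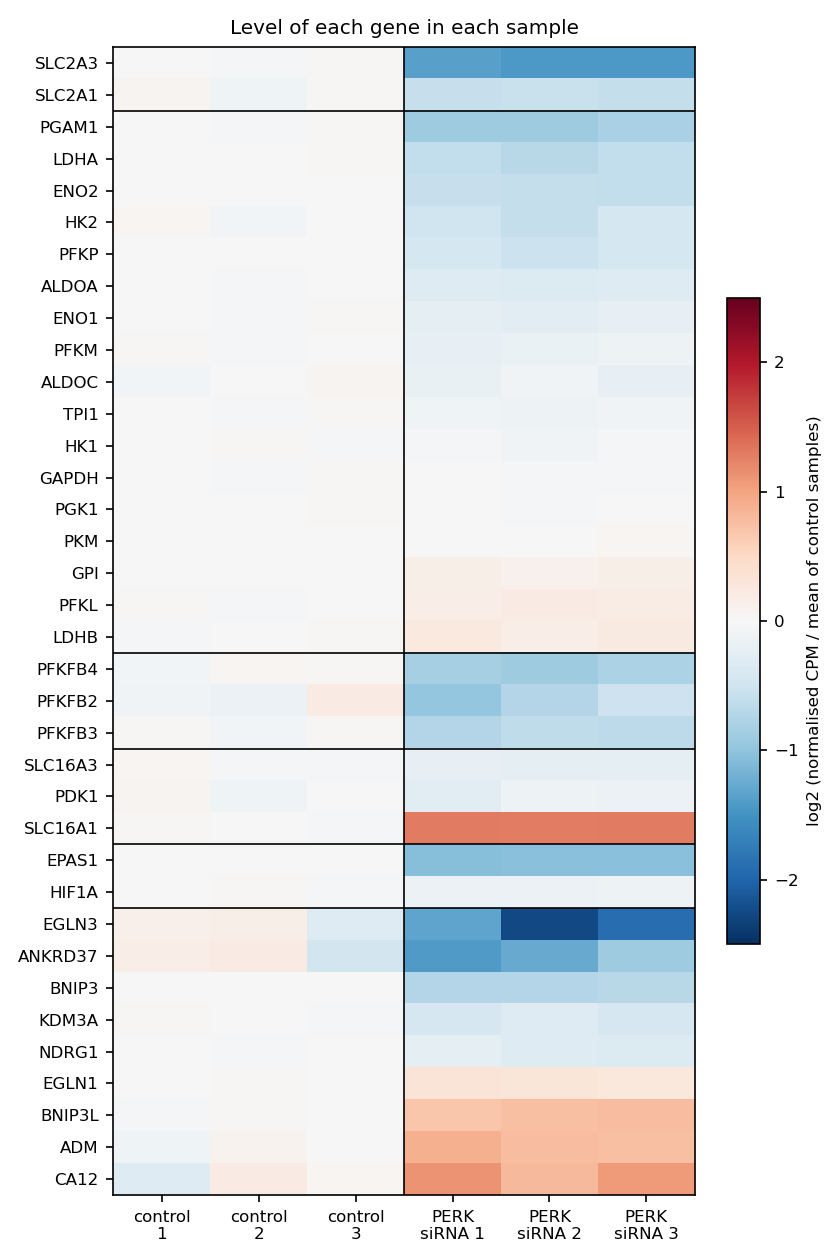
Each row is a gene and each column a sample; colour gives the log2 ratio of the normalised CPM to the mean of the 3 control samples, and lines separate the roles. The PERK siRNA columns are alike within each abundant gene, while the scarce EGLN3 and ANKRD37 vary more between samples.

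Both HIF α subunit genes fell, by very different amounts. EPAS1 (chromosome 2, 46293667 to 46386703, plus strand), which encodes HIF-2α, stood at 202.0, 203.5 and 200.5 CPM in controls and at 96.0, 97.3 and 98.3 CPM with PERK siRNA. All values within a group lay close together, and 48.1% of the control level remained (-1.05, SE 0.03, adjusted p = 2.0e-23). HIF1A (chromosome 14, 61695513 to 61748259, plus strand), which encodes HIF-1α, stood at 621.9, 632.0 and 607.2 CPM against 563.3, 559.6 and 566.1 CPM (-0.14, SE 0.02, adjusted p = 5.7e-06).

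EGLN1 and EGLN3 encode prolyl hydroxylases that mark HIF α for degradation, and both genes are themselves induced by hypoxia. EGLN1 (chromosome 1, 231363751 to 231425044, minus strand), the main oxygen sensor PHD2, rose from 80.6, 82.0 and 79.9 CPM to 101.2, 99.5 and 96.5 CPM (0.29, SE 0.03, adjusted p = 6.6e-09). EGLN3, which encodes PHD3, was scarce, with 21, 20 and 15 reads in controls and 7, 4 and 5 reads with PERK siRNA. It gave the lowest log2 fold change of the members and the widest error (-1.76, SE 0.39, adjusted p = 0.00020).

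The remaining hypoxia genes split. BNIP3 and BNIP3L encode related receptors that tether mitochondria for mitophagy, and they moved in opposite directions. BNIP3 (chromosome 10, 131966455 to 131982013, minus strand) fell from 88.1, 87.7 and 88.8 CPM to 53.0, 53.1 and 54.5 CPM (-0.72, SE 0.04, adjusted p = 6.8e-17). BNIP3L rose from 107.8, 113.0 and 112.2 CPM to 180.1, 188.1 and 189.7 CPM (0.75, SE 0.03, adjusted p = 4.1e-19). The vasodilator peptide gene ADM (chromosome 11, 10304680 to 10307397, plus strand) rose from 9.21, 10.5 and 9.99 CPM to 18.4, 16.9 and 16.7 CPM (0.81, SE 0.08, adjusted p = 4.9e-10). KDM3A, a histone H3 lysine demethylase, averaged 42.7 ± 1.00 CPM against 32.7 ± 1.32 CPM after PERK siRNA (SD, n = 3 each) and fell by 0.38 on the log2 scale (adjusted p = 4.0e-08). NDRG1, a stress-responsive gene linked to differentiation, fell from 64.9 ± 1.40 to 52.6 ± 1.86 CPM (SD, n = 3 each; -0.30, adjusted p = 8.6e-08).

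Among the hypoxia genes, 3 more were scarce or unread in these cells. ANKRD37, which encodes an ankyrin repeat protein, had 30, 29 and 19 reads in controls and 9, 11 and 14 with PERK siRNA (-1.16, SE 0.31, adjusted p = 0.0014); 35.2% of its exon bases overlap UFSP2 on the other strand. CA12, a membrane carbonic anhydrase gene, had 11, 15 and 14 reads against 27, 24 and 28 (1.00, SE 0.29, adjusted p = 0.0028). In both genes the groups did not overlap, but single samples differed by several reads. CA9, the carbonic anhydrase gene that is a classical HIF-1 target, had 0 reads in all 6 samples, which at the floor of 3 reads allows at most 0.153 to 0.167 CPM per sample.

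Set side by side, the 17 glycolytic enzymes gave 10 falls, 3 rises and 4 genes that did not pass. The 9 tested other hypoxia genes gave 5 falls and 4 rises, and over all tested genes 35% fell and 34.4% rose. The medians were -0.16 and -0.30 on the log2 scale, and the difference between the lists was not tested. With at least 1 CPM required in 3 samples, EGLN3 and ANKRD37 left the test and the median of the other hypoxia genes turned to 0.29. CA12, which rose, stayed in through its PERK siRNA samples alone (1.23 to 1.51 CPM, against 0.56 to 0.80 CPM in controls). Enzyme changes spanned -0.86 to 0.22, whereas those of the other hypoxia genes spanned -1.76 to 1.00. No enzyme changed by 2-fold or more, against 3 of the 9 hypoxia genes, none of which had more than 30 reads in any sample. Of these, EGLN3 and ANKRD37 would not have passed the expression filter on their PERK siRNA samples alone. Their place in the test thus depended on the controls, where they were higher. Against a null of a 1.2-fold change, 6 enzymes were lower and none higher (0 by edgeR, also 0 at an unadjusted p under 0.05). The 3 enzymes that rose had changed by 0.13 to 0.22 on the log2 scale, under 1.2-fold, so none of them could pass this null. DESeq2 and limma-voom, which test against no change, each called 3 higher. By that stricter rule 18.1% of all tested genes were lower and 18.1% higher.

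Levels per length showed which enzymes carry most of the mRNA. In control samples GAPDH averaged 9480 TPM, PKM 2936, ENO1 2872, TPI1 1902 and ALDOA 1773 TPM. Among these 5 genes the changes ran from -0.33 to 0.01 on the log2 scale. The summed TPM of the 17 enzymes was 22868 to 23302 in controls and 20986 to 21375 with PERK siRNA. The other hypoxia genes summed to 310.4 to 318.8 TPM in controls and to 350.4 to 357.3 TPM with PERK siRNA. Their sum was thus higher although more of them fell, since BNIP3L, EGLN1 and BNIP3 held most of it, and BNIP3L gained more TPM (95.5 to 159.3) than BNIP3 lost (84.3 to 50.9).

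**Figure D3:**
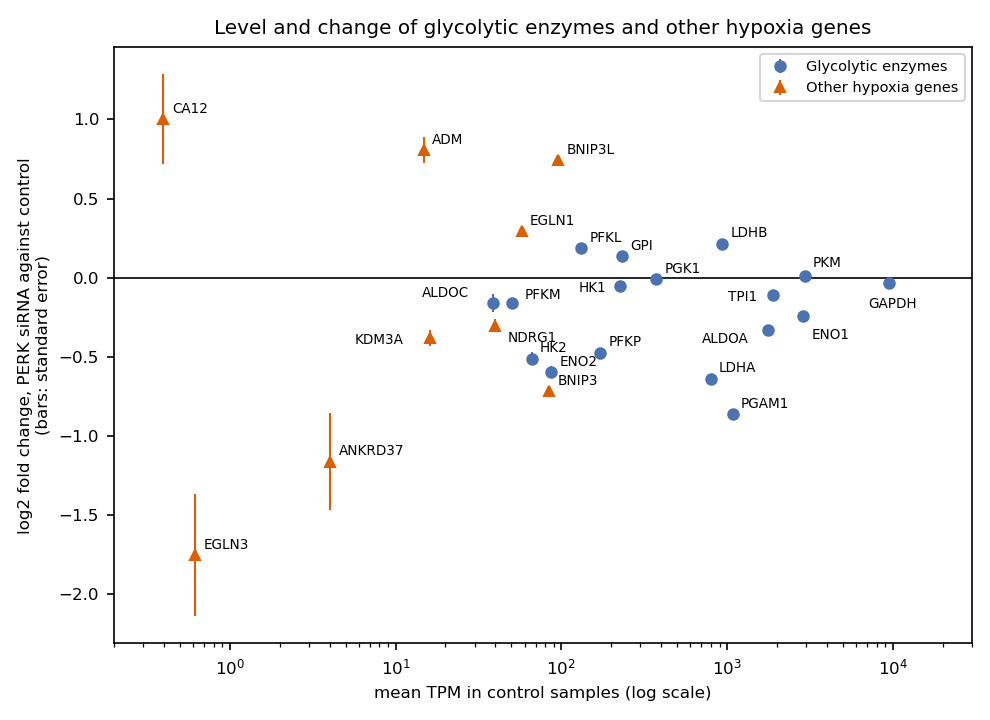
The horizontal axis gives the mean TPM in control samples on a log scale and the vertical axis the log2 fold change with its standard error, for 17 glycolytic enzymes (circles) and 9 other hypoxia genes (triangles). The enzymes lie between -0.86 and 0.22, and the widest errors belong to the scarce EGLN3, ANKRD37 and CA12.

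Because paralogs moved unequally, the make-up of several families shifted. The share of each member in the summed TPM of its listed family was compared in 11 families. In 10 of them the first-listed gene's share did not overlap between the groups. The levels of 36% of all tested genes were separated downward and of 35.8% upward, so separated shares were common to find. Shares in families outside the members were not computed. An exact two-sided permutation test over samples gave p = 0.10 for each of these 10, the smallest that 3 against 3 samples allow (0.11 after Benjamini-Hochberg adjustment over the families), so none could pass 0.05. LDHA made up 46.2, 45.7 and 45.8% of lactate dehydrogenase mRNA in controls and 31.7, 31.9 and 32.3% with PERK siRNA, with LDHB making up the rest. SLC16A1 rose from 20.5% ± 0.29 to 42.4% ± 0.27 of the 2 listed lactate carriers (SD, n = 3 each). The pair leaves out the lactate carrier gene SLC16A7, which averaged 13.0 TPM in controls and 5.56 TPM with PERK siRNA. BNIP3 went from 46.9% ± 0.65 to 24.2% ± 0.38 of the BNIP3 pair (SD, n = 3 each).

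The remaining shifts were smaller. SLC2A1 held 68.9% ± 1.31 of the 2 listed glucose transporters in controls and 79.9% ± 0.49 with PERK siRNA (SD, n = 3 each). Other SLC2A genes were left out of this pair. Among phosphofructokinase subunits, PFKP was the leading form in controls at 48.5% ± 0.45 and PFKL with PERK siRNA at 47.1% ± 1.02 (SD, n = 3 each). HIF1A made up 79.1% ± 0.21 and 87.7% ± 0.12 of HIF α mRNA, and HK1 made up 77.4% ± 0.90 and 82.5% ± 0.53 of hexokinase mRNA (SD, n = 3 each). On total reads ALDOA, ENO1 and EGLN1 each stayed above 97% of their listed families in every sample. For EGLN1 the listed family is the pair with the scarce EGLN3 and leaves out EGLN2. EGLN2 averaged 77.2 TPM in controls and 59.0 TPM with PERK siRNA, with 2.63% of its reads unique, against 57.7 and 70.4 TPM for EGLN1. The share of PFKFB2, the first-listed gene of its family, overlapped between groups (2.38% ± 0.27 and 2.43% ± 0.32, SD, n = 3 each, exact permutation p = 0.80). In the same family the share of PFKFB4 overlapped too, while that of PFKFB3 did not (48.5% ± 1.87 and 51.4% ± 1.08, SD, n = 3 each).

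**Figure D4:**
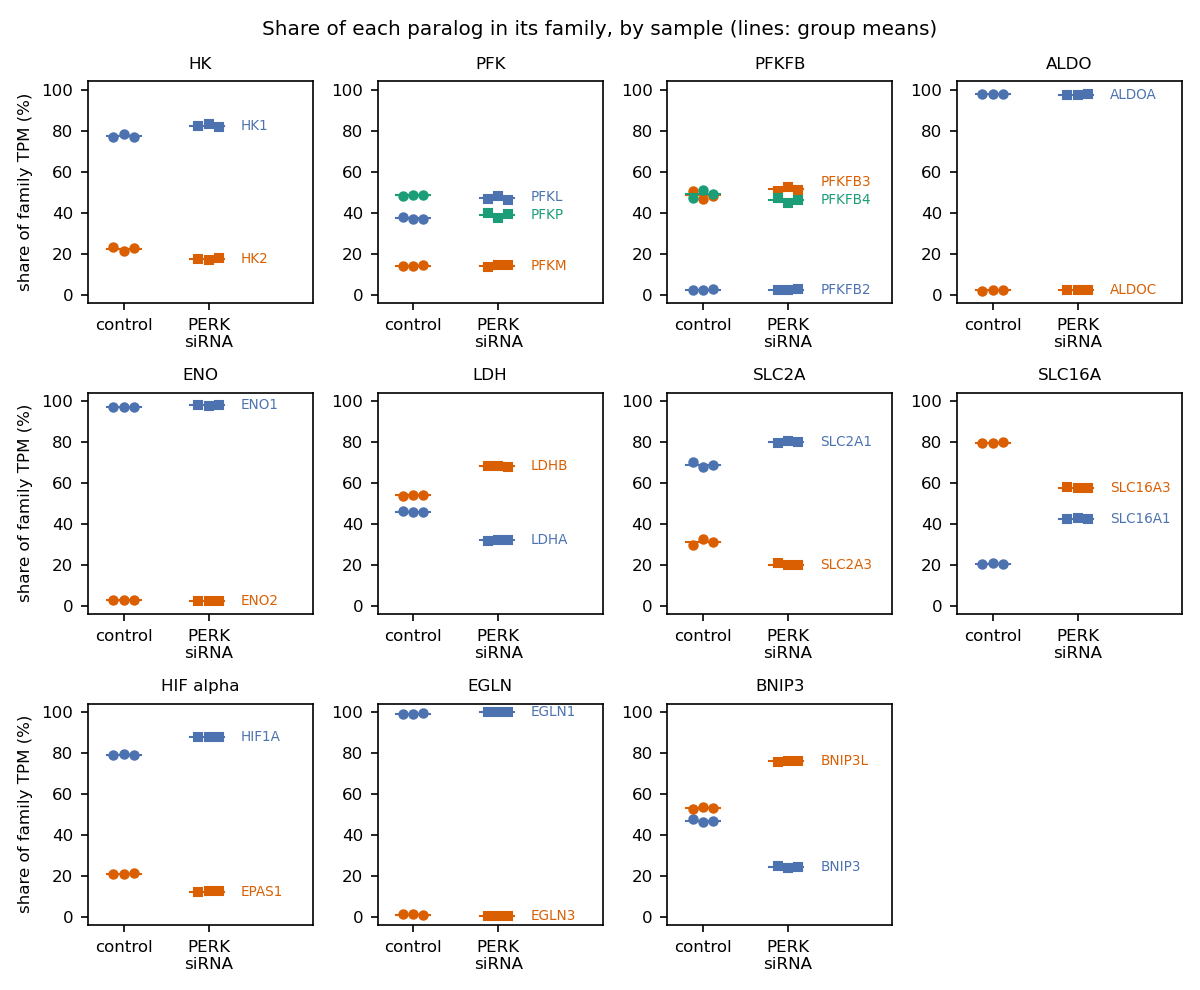
Each panel shows the listed genes of 1 family. The vertical axis is each gene's share of their summed TPM in percent. Circles mark the 3 control samples, squares the 3 PERK siRNA samples and lines the group means. The LDH, SLC16A and BNIP3 panels show the widest shifts, of -14.0, 21.9 and -22.6 percentage points for LDHA, SLC16A1 and BNIP3.

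Several glycolytic genes share sequence with copies or with overlapping annotations, so each value was repeated on uniquely placed reads. Of the ALDOA reads only 4.17% were placed uniquely. In GENCODE v29, 42.3% of its exon bases overlap AC093512.2, a coding gene on the same strand. The table's row ENSG00000285043 next to ALDOA held 175 to 426 reads, 1.52% of the reads of both rows. On unique reads ALDOA fell by 0.45 on the log2 scale (adjusted p = 3.0e-13), more than on total reads. LDHB had 28.8% unique reads and a rise of 0.19 on them (adjusted p = 1.0e-07), and 33.4% of its exon bases overlap the same-strand coding gene AC010197.2. EGLN1 had 30.9% unique reads and a rise of 0.31 (adjusted p = 1.2e-06). PGAM1, with 13 annotated pseudogenes named after it, had 73.5% unique reads and a fall of 0.87 (adjusted p = 1.7e-36), and the row of its copy PGAM4 held 0 to 6 reads per sample.

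For the other members the unique share was higher. It was 77.7% for ANKRD37 and 85.7% for SLC2A3, and from 92.1% to 100% elsewhere. All BNIP3 reads and nearly all GAPDH reads were counted as unique although 39 and 62 annotated pseudogenes carry their names, and the handling of reads that match those is not known here. On unique reads the members gave the same 24 falls and 8 rises by count, and each called member kept its direction and its call. Among family shares, the difference for ALDOA was -4.63 percentage points on unique reads against -0.26 on total reads, and that for EGLN1 was 2.55 against 0.80. Unique reads per full exon length understate genes with few unique reads. On these, ALDOA made up 65.1 to 67.8% of its listed family in controls and 59.5 to 63.3% with PERK siRNA. EGLN1 made up 96.3 to 97.2% and 98.9 to 99.4% of its pair with EGLN3.

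Further lists are set beside the shares of all tested genes, 35% lower and 34.4% higher. Of 12 tested genes of the HIF machinery that are not members, rises and falls numbered 5 each (median 0.00), a share near that background. CITED2, whose product competes with HIF for its coactivators, rose from 59.3 to 134.0 CPM (1.18) and the coactivator gene CREBBP rose from 136.2 to 185.9 CPM (0.45). ARNT, which encodes HIF-1β, the partner of both α subunits, fell from 44.8 to 31.1 CPM (-0.52), and the prolyl hydroxylase gene EGLN2 fell by 0.38 on total reads and by 0.81 (SE 0.21) on the 2.63% that were unique.

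In a list of 29 further hypoxia-responsive genes, falls numbered 14 and rises 11 (median -0.08), the rises near the background of 34.4%. The transcriptional repressor gene BHLHE40 fell from 125.5 to 30.5 CPM (-2.04), the vascular growth factor gene VEGFA from 99.1 to 14.5 CPM (-2.77) and DDIT4, an inhibitor of mTORC1, from 50.3 to 25.0 CPM. LOX, which crosslinks collagen, rose from 99.8 to 186.9 CPM (0.90). By at least 2-fold 5 of them fell and 1 rose, against 3.84% and 4.07% of all tested genes; the others of these, named after their values were seen, were ANGPTL4 (-3.46) and INSIG2 (-1.08), which fell, and IGFBP3 (1.75), which rose.

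Of 13 tested further genes of glycolysis, gluconeogenesis and glycogen supply 6 fell and 5 rose (median -0.14), against 35% and 34.4% of all tested genes. PGM2, a phosphopentomutase gene (0.44), and PC, the pyruvate carboxylase gene (0.50), rose. MINPP1 (-0.51) and BPGM (-0.45), whose products act on 2,3-bisphosphoglycerate, fell. The tissue-restricted forms HK3, PGK2 and LDHC had no read, named here after their values were seen. Among 10 tested further transporters and their partners 4 fell and 2 rose (median -0.11), against the same background. SLC16A7, encoding the lactate carrier MCT2, fell from 50.6 to 21.7 CPM (-1.22). BSG, the chaperone that brings MCT1 and MCT4 to the membrane (-0.44), and TXNIP, an inhibitor of glucose uptake (-0.52), fell as well. The scarce SLC2A12 rose from 1.55 to 3.13 CPM (1.00), with 62.9% of its reads placed uniquely. A difference between these lists and the members was not tested.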

How the data were processed

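Gene expression was measured in 3 control siRNA and 3 PERK siRNA samples of LX-2 cells, grouped and numbered by their titles. Per the labels' protocols, libraries came from a directional kit. The submitters' processing notes name hg38 as the build; for the aligner, the counter, its use of strand and the annotation the entry is "not given in the sources used here". Per the file headers, the authors deposited TPM beside total and unique exon read counts for each gene. These TPM followed from total exon reads and exon length (largest relative difference 7.1e-08). Of 21533 rows, 1484 had an exon length of 0 and no reads.

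Total exon reads were tested with edgeR 4.0.16 (R 4.3.3): TMM factors, the default expression filter, the robust quasi-likelihood test and Benjamini-Hochberg adjustment over 12973 genes, called at 0.05. The SE is the log2 fold change divided by the square root of the F statistic. On simulated data for this comparison the test, run on 12954 genes, found 32 of the 50 genes given a 1.2-fold change. It found 49 of the 50 given 1.5-fold and all 50 given 2-fold, and 6 unchanged genes were called. The simulation changed few genes, all of them well read, and gave every gene the same spread. In the data 69.5% of genes passed, so these figures do not carry over to it, nor to scarce genes such as EGLN3, ANKRD37 and CA12. Depth sets a floor of 3 reads. Replicates differed by more than sampling noise (chi-square per degree of freedom 1.65 to 2.31 within groups), so none was taken for a copy of another. Family shares were computed from TPM in Python 3.11.15. Alternatives were other scaling, filters, unique reads, DESeq2 1.42.0, limma-voom (limma 3.58.1), non-robust dispersion, a replicate block, a 1.2-fold null and leaving out each sample. Places of genes are from GENCODE v29 (GRCh38), matched by Ensembl identifier; promoter windows are from RefSeq. The members and lists were chosen with earlier results of these data known. Named genes were EIF2AK3, all members and, from each further list, up to 4 genes with the smallest adjusted p.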

Additional observations from a re-analysis of the deposited data

How the results depend on the processing

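Of the 32 members called, 30 kept direction and call under every alternative other than the 1.2-fold null; ALDOC and PDK1 lost theirs with DESeq2 and without single samples, as given above. No called member changed direction under any alternative, and 20 kept the call against the 1.2-fold null. That null left 2344 genes lower and 2345 higher over all genes, 4 members higher, 6 glycolytic enzymes lower and 0 higher. No enzyme that rose had reached 1.2-fold. Requiring at least 1 CPM in 3 samples removed EGLN3 and ANKRD37, which had both fallen, from the test. That left 3 other hypoxia genes lower and turned the list's median to 0.29. CA12, which rose, met this filter only in its PERK siRNA samples, so the turn reflects which genes the filter kept. Leaving out 1 sample at a time gave 23 to 25 members lower and 8 higher throughout, and a difference in the PFKFB2 share of -0.11 to 0.21 percentage points, which changed sign without control sample 2 or PERK siRNA sample 3. Samples with the same replicate number did not deviate together (correlations of -0.03 to 0.01 across genes, which are not independent replicates), so the numbers were not taken as pairs; with the replicate number as a block, 24 members were lower and 8 higher, and 10 enzymes were lower and 3 higher. Without scaling factors the median of all genes moved by -0.01. Genes with few reads (EGLN3, ANKRD37, CA12) carry SEs of 0.29 to 0.39, so the size of their changes is poorly fixed at this depth.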

Other observations

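The next steps of glucose carbon were measured in the same libraries. Of 29 tested genes of pyruvate entry into mitochondria and of the tricarboxylic acid cycle, falls numbered 17 and rises 6 (median -0.11 on the log2 scale), against 35% and 34.4% of all tested genes. DLAT (-0.60) and DLD (-0.57), which encode subunits of the pyruvate dehydrogenase complex, fell from 80.2 to 53.0 CPM and from 195.9 to 131.7 CPM. IDH3A, a catalytic subunit gene of isocitrate dehydrogenase, fell from 115.8 to 70.2 CPM (-0.72), with 53.8% of its reads placed uniquely. SUCLG2, the GTP-forming subunit gene of succinyl-CoA synthetase, went against these and rose from 29.8 to 70.0 CPM (1.23).

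Of 10 genes of the pentose phosphate pathway, which branches off at glucose 6-phosphate, 5 fell and 4 rose (median -0.07), against the same 35% and 34.4%. TKT, the transketolase gene, fell from 386.6 to 265.9 CPM (-0.54), and the epimerase gene RPE fell from 95.4 to 69.0 CPM (-0.47). The genes of ribose phosphate activation diverged: PRPS1 fell from 124.6 to 92.0 CPM (-0.44) while PRPS2 rose from 59.9 to 96.6 CPM (0.69).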
